A study of Mus musculus with 12 samples.

Results

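Mouse embryonic fibroblasts (MEFs) labelled RBBP5 KO were compared between EBSS and full medium, 3 libraries against 3. Genes were taken into the comparison where at least 3 of these 6 libraries reached 1 TPM (a relative abundance per library, corrected for transcript length). This left 12295 of 25117 gene symbols, and the other 12822 were not tested. The third-highest TPM was 1.00 in the gene just inside this threshold and 0.9998 in the gene just outside it. All cells of the study were homozygous for floxed Rbbp5 and for Cre at Rosa26, the cells labelled wildtype among them. The labelled-KO EBSS cells had 7 days of tamoxifen and then 16 hours in Earle's balanced salt solution (EBSS). The KO full-medium cells had the same tamoxifen and then 16 hours in DMEM with fetal bovine serum. Labelled-wildtype EBSS cells had no tamoxifen and 16 hours in EBSS, and wildtype full-medium cells had no tamoxifen and stayed in full medium, with 3 libraries each. The wildtype full-medium libraries serve here as a second set of levels. Beyond the check of Rbbp5, the labelled-wildtype EBSS libraries enter only alternative fits and the closing sections, which describe them. A limma test there, with both wildtype groups, asks whether the change differed between the labels. In either direction, 9491 of the 12295 genes (77.2%) passed it. Tamoxifen was given only to cells labelled KO, so effects of the drug or of active Cre and effects of Rbbp5 loss cannot be told apart. No label says whether the replicates came from separate cultures or embryos, so the p-values measure the spread between these libraries, which may be technical.

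EBSS supplies salts and glucose but no amino acids, vitamins or serum, and it is widely used to starve cultured cells. Amino acid shortage is known to activate the kinase GCN2, to raise translation of the transcription factor ATF4 and to switch off mTORC1, which otherwise holds back autophagy and lysosome genes. Loss of serum is known to lower the growth factor-driven immediate early genes and to free FoxO factors. RBBP5 belongs to the core shared by SET1/COMPASS and MLL methyltransferases, whose mark on lysine 4 of histone H3 is found at active promoters and enhancers.

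Rbbp5, the targeted gene, did not have the low level in EBSS that its label implies. Its identifier is ENSMUSG00000026439.14, and GENCODE vM21 places it on chromosome 1 between 132477365 and 132505659 of GRCm38. It had 31.9, 24.6 and 23.0 TPM in the labelled-KO EBSS libraries, 7.47, 9.34 and 8.31 TPM in the KO full-medium libraries, and 26.2, 25.7 and 26.2 TPM in the wildtype full-medium libraries. All 3 labelled-KO EBSS libraries lay above all 3 KO full-medium libraries and around the wildtype full-medium level. The labelled-wildtype EBSS libraries had 12.4, 14 and 11.8 TPM, below every labelled-KO EBSS and wildtype full-medium library. The log2 change was 1.54 ± 0.15 (SE; adjusted p = 0.000137, limma), and 1.41 without EBSS replicate 1. Every fold change here is a difference of log2(TPM + 1), which understates the change of low genes, and every p comes from limma with Benjamini-Hochberg adjustment over the 12295 genes. TPM sums over the whole gene, and which exons Cre removes is not given in the sources used here. Whether labels were exchanged among the EBSS libraries was not tested. The group is therefore called by its label throughout, and each direction below is that of libraries with this label. If the labels were exchanged, every difference below between labelled-KO EBSS and KO full medium would also hold the difference between untreated and tamoxifen-treated cells.

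The 3 EBSS libraries did not form an even group. Replicates 2 and 3 had only 25 tested genes at least 2-fold apart (Pearson r = 0.9973 across genes), while replicate 1 had 578 and 634 such genes against them. The KO full-medium libraries differed from each other in 48 to 57 genes. Against the wildtype full-medium libraries, replicates 2 and 3 had 37 to 65 genes at least 2-fold apart and replicate 1 had 630 to 662. Against the KO full-medium libraries, all 3 were far away, with 2437 to 3118 genes. Cytosolic ribosomal protein genes held 15.4% ± 0.151 of TPM in labelled-KO EBSS and 18.3% ± 1.04 in KO full medium (SD, n = 3 each). The median tested gene had 23.1 ± 1.05 TPM in labelled-KO EBSS and 20.2 ± 1.23 TPM in KO full medium (SD, n = 3 each). Neither library-level difference can pass a test here: a two-sided exact permutation test gave p = 0.1 for both, the smallest that 3 against 3 allows. Their part in the results below was not tested. TPM carries no read totals, so depth is unknown.

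**Figure D1:**
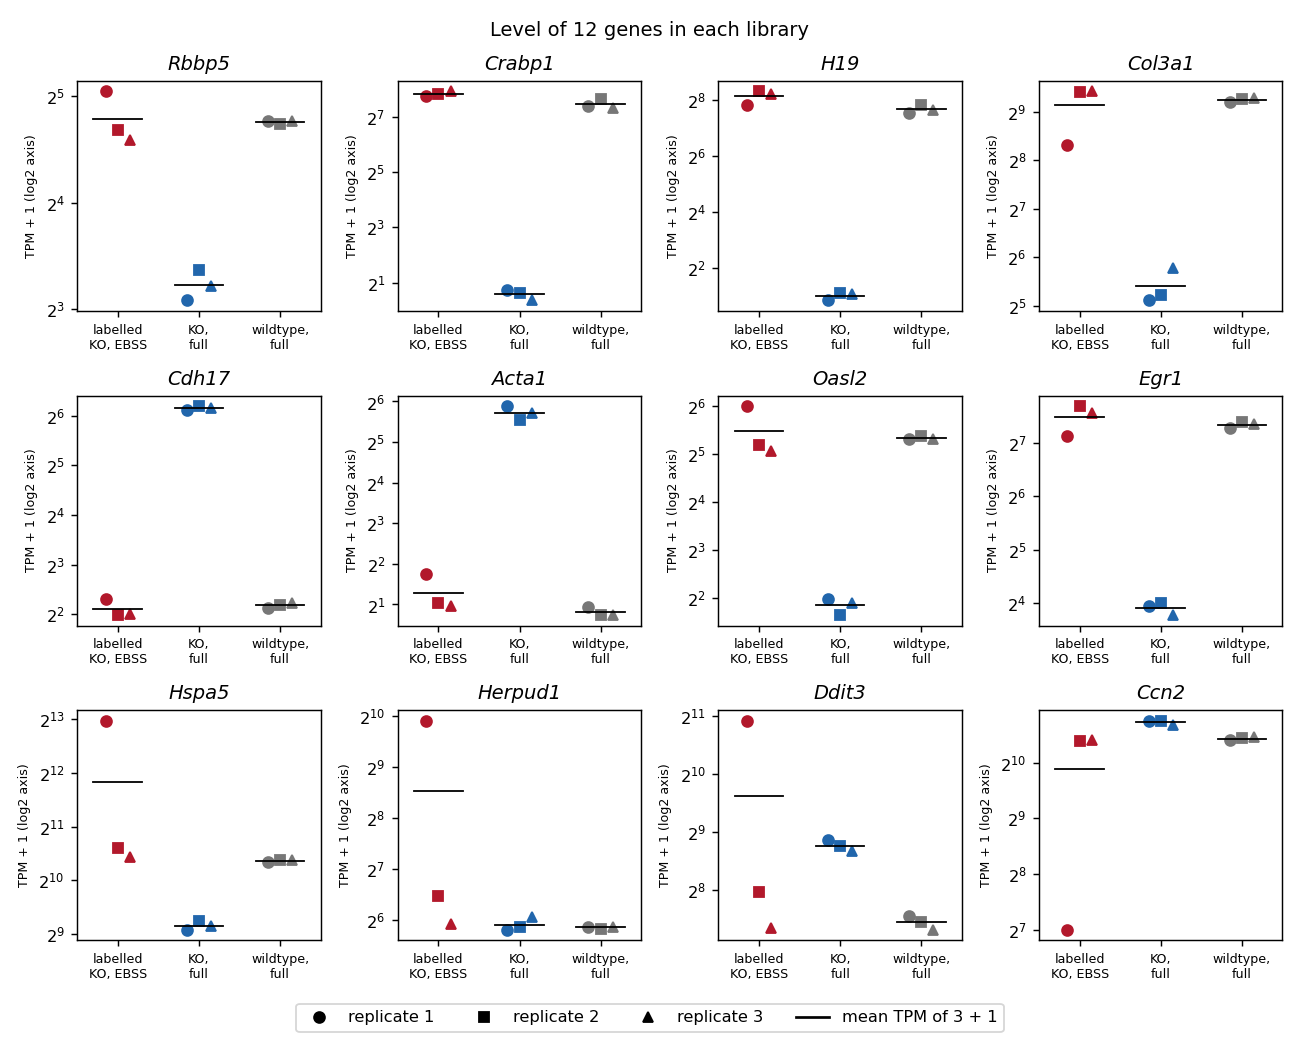
Level of 12 genes in each library as TPM + 1 on a log2 axis, with labelled KO, EBSS on the left, KO, full medium in the middle and wildtype, full medium on the right; symbols mark replicates and the line the mean of 3. Rbbp5, Crabp1, H19, Acta1 and Cdh17 sit near the wildtype full-medium level in all 3 EBSS libraries, while Hspa5, Herpud1 and Ddit3 are far higher, and Ccn2 far lower, in EBSS replicate 1 than in the other two.

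Of the 12295 genes, 7304 (59.4%) passed at an adjusted p under 0.05. Of all genes tested, 4350 (35.4%) were higher in labelled-KO EBSS and 2954 (24.0%) were lower. At least 2-fold, 1713 (13.9%) were higher and 690 (5.61%) lower. Every labelled-KO EBSS library lay above every KO full-medium library in 5090 genes (41.4%) and below every one in 3319 (27.0%). Such a separation alone therefore does not set a gene apart. The median change over all genes was 0.13 on the log2 scale, and it was 0.01 after median-of-ratios scaling and -0.04 after quantile normalization. The split of calls moved with that scaling, to 3763 higher (30.6%) and 3710 lower (30.2%) under median-of-ratios and to 3391 higher and 4066 lower under quantile normalization. Without EBSS replicate 1, 8504 genes (69.2%) passed, 4815 (39.2%) higher and 3689 (30.0%) lower. With median-of-ratios scaling as well, an alternative chosen after seeing the data, 8767 (71.3%) passed, 4419 (35.9%) higher and 4348 (35.4%) lower. The calls without replicate 1 and with no other scaling included 4288 of the 4350 higher calls and 2936 of the 2954 lower calls of the 6-library fit. Among the genes tested, 619 reached 1 TPM only in the 3 EBSS libraries and 244 only in the 3 KO full-medium libraries, so these had to differ, and 611 and 244 of them were called. Of the genes described below, Crabp1, Kap, Serpina3g, Has2, Pdgfra, Meg3, Rian, Ndn, Egr2, Egr3, Spry1, Slc7a11, Icam1, Gjb2, Ctsc, Lum, Thy1, Kdr, Tnni1, Sox2 and Cebpa passed the filter only through EBSS, and Pappa2 and Terc only through KO full medium. Their separation follows from the filter, so their values are a description and a call on them supports nothing.

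**Figure D2:**
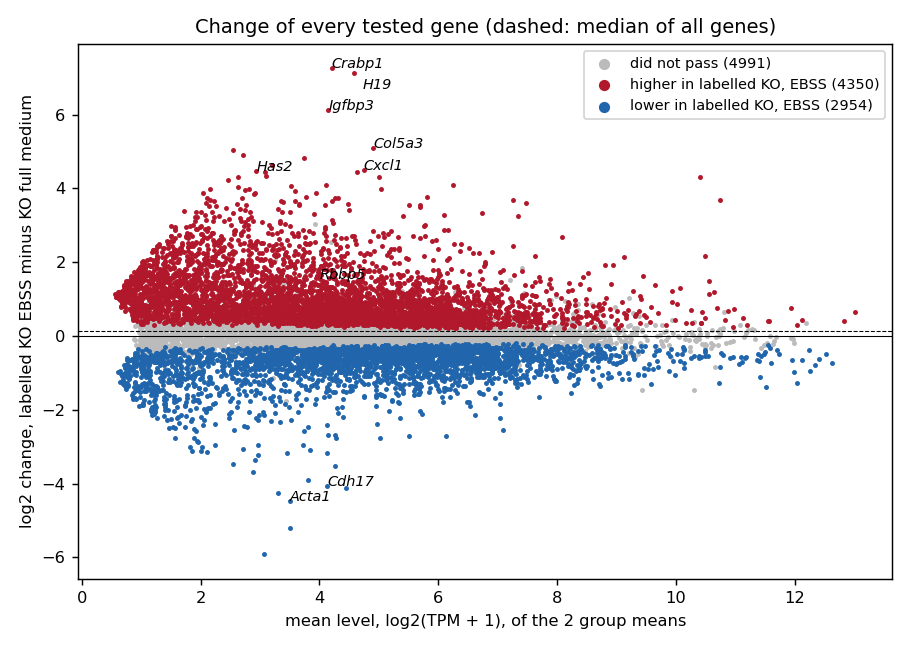
Log2 change (labelled-KO EBSS minus KO full medium) of each of the 12295 tested genes against its mean level in log2(TPM + 1), red where higher, blue where lower and grey where the test was not passed; the dashed line is the median of all genes, 0.13. More points lie above 2-fold than below it, and the largest changes are at genes near 0 in either group.

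The largest rises were genes that were close to 0 in KO full medium. Crabp1, a cytosolic retinoic acid binding protein (chromosome 9 from 54764748 to 54773110), had 213, 227 and 239.6 TPM in the labelled-KO EBSS libraries and 0.661, 0.541 and 0.282 TPM in the KO full-medium libraries. Its log2 change was 7.26 ± 0.12 (SE), given as a description, since it entered the comparison only through the EBSS libraries. The wildtype full-medium libraries, at 166, 196 and 159 TPM, lay beside the labelled-KO EBSS libraries. H19, an imprinted long noncoding RNA of fetal tissues (chromosome 7 from 142575529 to 142578143), had 229, 317 and 298 TPM in labelled-KO EBSS and 0.786, 1.13 and 1.11 TPM in KO full medium. It rose by 7.12 ± 0.15 (SE; adjusted p = 1.56e-06, limma). Igfbp3, a secreted carrier of insulin-like growth factors (chromosome 11 from 7206086 to 7213923), had 116, 163 and 164 TPM in labelled-KO EBSS and 1.02, 0.744 and 1.58 TPM in KO full medium, a rise of 6.14. All 3 genes were high in each EBSS library, replicate 1 included.

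The other large rises were in secreted and membrane proteins. Col5a3, a fibrillar collagen chain, had 208, 156 and 159 TPM in labelled-KO EBSS and 3.49, 3.56 and 5.23 TPM in KO full medium, a rise of 5.11, and all 3 EBSS libraries were high. Kap had 38.6, 22.5 and 38.3 TPM in labelled-KO EBSS and was listed at 0 in all 3 KO full-medium libraries, so no fold is given. Serpina3g, a serine protease inhibitor, rose by 4.92, and Creb3l1, a membrane-bound transcription factor of the secretory pathway, rose by 4.82. Rbp4, the plasma carrier of retinol, rose by 4.62 and Cxcl1, a neutrophil chemokine, by 4.5. Has2, the main hyaluronan synthase of fibroblasts, stood apart from these. It had 4.67, 64.1 and 63.6 TPM in labelled-KO EBSS and 0.197, 0.352 and 0.368 TPM in KO full medium. Its log2 change was 4.47 ± 0.88 (SE), and 5.64 without replicate 1, which lay between the other EBSS libraries and KO full medium. Both values are a description, since Has2 entered the comparison only through the EBSS libraries.

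Large falls were in genes that were high only in KO full medium among the 9 libraries described here. Acta1, skeletal muscle actin (chromosome 8 from 123891769 to 123894751), had 2.34, 1.06 and 0.939 TPM in labelled-KO EBSS and 58.1, 45.5 and 51.5 TPM in KO full medium. The log2 change was -4.47 ± 0.22 (SE; adjusted p = 1.14e-05, limma), and the wildtype full-medium libraries were at 0.913, 0.674 and 0.668 TPM. Cdh17, a cadherin of intestinal epithelium, had 3.96, 2.95 and 3.00 TPM in labelled-KO EBSS and 68.0, 72.4 and 70.5 TPM in KO full medium, a change of -4.06. In both genes every EBSS library lay below every KO full-medium library and near the wildtype level. The placental prolactin-family genes Prl2c3 and Prl3d2 changed by -4.26 and -3.46. S100a7a, a calcium-binding protein of skin, changed by -4.12, Aldh1a7, an aldehyde dehydrogenase, by -3.89, and Cck, the peptide hormone cholecystokinin, by -3.35. AU021092 and Fam71f1 changed by -3.70 and -3.22.

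Gene groups were described by the number of their tested members that passed the test over all genes, and by their median change beside the median of 0.13 over all genes. The members of each list were chosen with earlier results of these data known, so a count describes the list and is not independent evidence. Counts and medians also hold any members that passed the filter only through EBSS or only through KO full medium. Such calls follow from the filter, and their number in each list is not given here. Of all genes, 35.4% rose and 24.0% fell, and a list near those shares was not set apart from the rest.

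**Figure D3:**
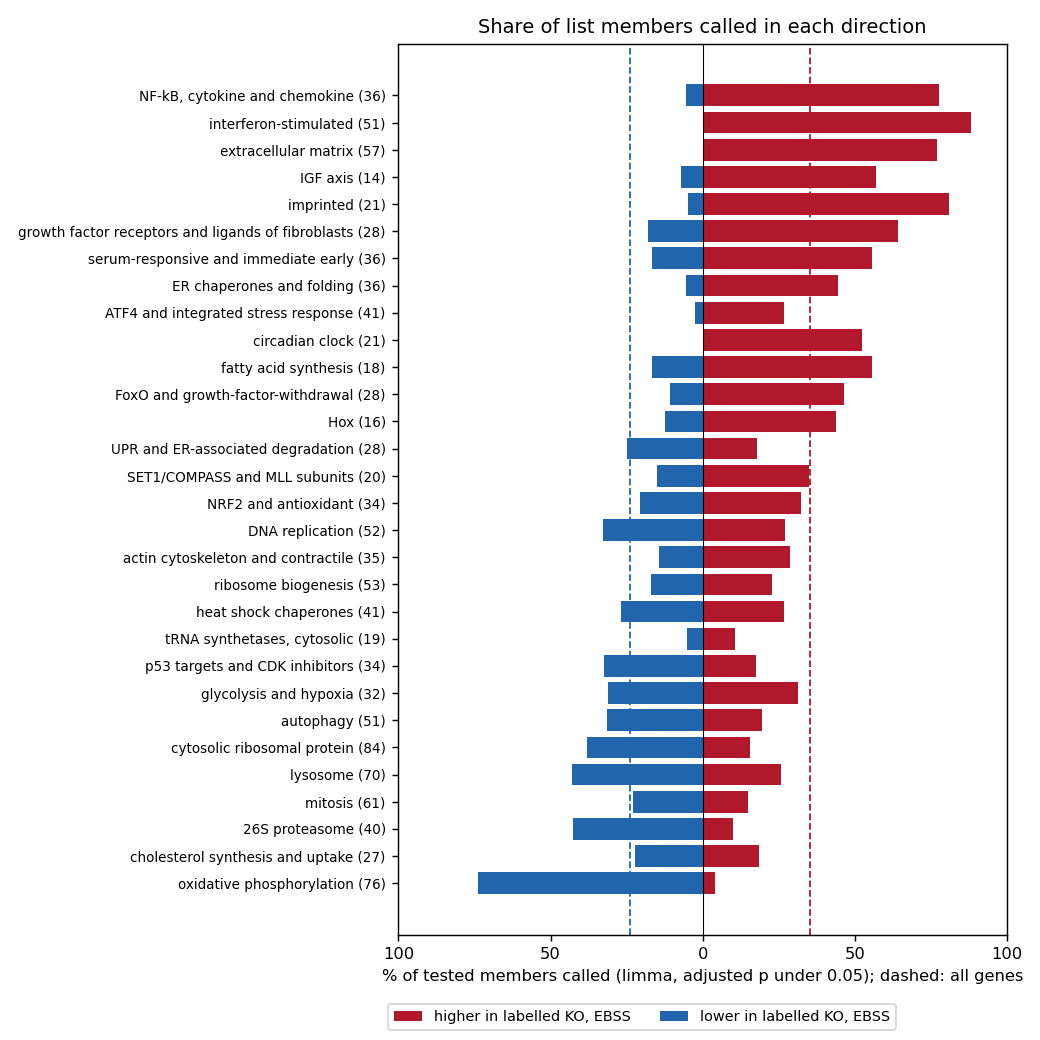
Percentage of tested members of 30 gene lists that were higher (red, to the right) or lower (blue, to the left) in labelled-KO EBSS than in KO full medium, with the number of tested members in brackets; dashed lines mark the shares over all genes, 35.4% and 24.0%. Interferon, imprinted, NF-kB and matrix lists reach farthest to the right and oxidative phosphorylation farthest to the left.

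Genes of the extracellular matrix, the scaffold that fibroblasts secrete, were mostly higher. Of 57 tested members, 44 rose, 0 fell and 13 did not pass, with a median change of 1.69. The list's median against the mean of wildtype full medium was -0.53, -0.01 and -0.03 in EBSS replicates 1, 2 and 3. Leaving out single libraries gave 41 to 49 that rose. Without EBSS replicate 1, 3 fell, and without EBSS replicate 2 or 3, 1 fell. Col3a1, the fibrillar collagen of elastic tissues, had 318, 678 and 685 TPM in labelled-KO EBSS and 33.4, 36.4 and 53.5 TPM in KO full medium. Its rise was 3.68 ± 0.32 (SE; adjusted p = 8.66e-05, limma), with replicate 1 the lowest of the EBSS libraries but still above all KO full-medium libraries. Col6a3, a chain of the beaded-filament collagen, had 109, 139.8 and 139 TPM in labelled-KO EBSS and 6.48, 7.49 and 7.72 TPM in KO full medium, a rise of 3.97. In both collagens no library of 1 group reached the range of the other. Postn, the matrix protein periostin, and Ccn1 below were picked after their values were seen. Postn had 20.5, 35.0 and 35.2 TPM in labelled-KO EBSS and 2.54, 2.60 and 2.97 TPM in KO full medium. Replicate 1 was its lowest EBSS library, without reaching the KO full-medium range. The CCN proteins, matrix regulators that respond to the YAP coactivator and to serum, did not follow the list. Ccn2 had 128, 1345 and 1353 TPM in labelled-KO EBSS and 1720.4, 1705 and 1626 TPM in KO full medium, and Ccn1 had 121, 626 and 655 TPM in labelled-KO EBSS and 1066, 1044 and 940.1 TPM in KO full medium. Neither Ccn2 nor Ccn1 passed over all 6 libraries (adjusted p = 0.176 and 0.0693, limma), while Ccn2 fell by 0.32 without replicate 1 (adjusted p = 0.00392, limma).

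Receptors, ligands and binding proteins that fibroblasts use for growth factors moved in the same direction. Of 28 receptors and ligands tested, 18 rose and 5 fell, with a median change of 0.98. Pdgfra, a receptor for platelet-derived growth factor, had 15.6, 10.1 and 10.3 TPM in labelled-KO EBSS and 0.263, 0.224 and 0.225 TPM in KO full medium. Its log2 change was 3.37 ± 0.17 (SE), a description again, since it entered only through the EBSS libraries. Egfr, the epidermal growth factor receptor, had 14.5, 19.5 and 20.1 TPM in labelled-KO EBSS and 0.801, 1.35 and 1.38 TPM in KO full medium, a rise of 3.13. Grem1, a secreted antagonist of bone morphogenetic proteins, rose by 3.76 and Fgf7, a mesenchymal growth factor for epithelia, by 3.57. Fgfr2 and Nrp2, receptors for fibroblast growth factors and for semaphorins, changed by -1.46 and -1.26. Fgf2, a mitogen of fibroblasts, had 3.20, 29.0 and 26 TPM in labelled-KO EBSS and 2.62, 5.15 and 6.15 TPM in KO full medium, and it did not pass (adjusted p = 0.118, limma). Replicate 1 lay within the KO full-medium range there, and without it Fgf2 rose by 2.39.

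Of 14 genes of the insulin-like growth factor (IGF) axis, 8 rose and 1 fell, with a median of 1.09. Beside Igfbp3, the binding proteins Igfbp5 and Igfbp4 rose by 2.5 and 2.25, and Htra1, a protease that cuts such binding proteins, by 2.87. Igfbp4 had 203, 211 and 212 TPM in labelled-KO EBSS and 41.8, 43.3 and 44.3 TPM in KO full medium. Pappa2, another protease of IGF-binding proteins, changed by -1.59, at 0.566, 0.277 and 0.262 TPM in labelled-KO EBSS and 2.74, 3.32 and 3.25 TPM in KO full medium. The replicates of each group were close together in both genes.

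Imprinted genes, of which only the copy from 1 parent is active, shared the direction of H19. Of 21 tested, 17 rose and 1 fell, with a median of 1.06, and 13 to 17 rose with single libraries left out. The list's median against the mean of wildtype full medium was 0.13, 0.01 and 0.03 in EBSS replicates 1, 2 and 3. With EBSS replicate 1 left out, 2 fell, and after quantile normalization 13 rose and 2 fell. Meg3, the maternally expressed RNA of the Dlk1 locus, had 19.9, 25.0 and 23.6 TPM in labelled-KO EBSS and 0.178, 0.329 and 0.296 TPM in KO full medium, a rise of 4.23. Rian, from the same transcribed region, had 6.32, 11.8 and 12.7 TPM in labelled-KO EBSS and 0.171, 0.314 and 0.274 TPM in KO full medium, a rise of 3.12. Ndn, a paternally expressed gene of the MAGE family, rose by 2.95. In Rian replicate 1 was the lowest EBSS library. Meg3, Rian and Ndn passed the filter only through EBSS, so their separation from KO full medium follows from it. Snrpn, a splicing protein gene, changed by -0.47, at 6.16, 5.46 and 5.66 TPM in labelled-KO EBSS and 8.40, 8.37 and 8.39 TPM in KO full medium.

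Interferon-stimulated genes, the antiviral programme that cells switch on in response to interferons, were mostly higher. Of 51 tested, 45 rose, 0 fell and 6 did not pass, with a median of 1.80, and 40 to 46 rose with single libraries left out. The list's median against the mean of wildtype full medium was 0.53, -0.22 and -0.28 in EBSS replicates 1, 2 and 3. Oasl2, an oligoadenylate synthetase-like protein, had 62.6, 35.1 and 32.4 TPM in labelled-KO EBSS and 2.96, 2.13 and 2.72 TPM in KO full medium. It rose by 3.57 ± 0.25 (SE; adjusted p = 3.41e-05, limma). Gbp2, a guanylate-binding GTPase, had 63.5, 35.1 and 31.4 TPM in labelled-KO EBSS and 2.96, 2.22 and 2.69 TPM in KO full medium, a rise of 3.55. Rtp4 rose by 3.30 and Gbp3 by 3.12. In all 4 genes the EBSS libraries were above the KO full-medium libraries, with replicate 1 the highest. Replicate 1 was at least 2-fold above the mean of the other EBSS libraries in 16 of the 51 genes, and the list's median change against the mean of KO full medium was 2.33 in replicate 1, 1.56 in replicate 2 and 1.48 in replicate 3. Ifit1, picked after its values were seen, had 148, 47.3 and 44.5 TPM in labelled-KO EBSS and 13.3, 15 and 14 TPM in KO full medium.

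Genes of NF-kB, the inflammatory transcription factor, and of cytokines and chemokines were also higher. Of 36 tested, 28 rose and 2 fell, with a median of 1.82, and 22 to 29 rose with single libraries left out. The list's median against the mean of wildtype full medium was -0.32, -0.04 and -0.03 in EBSS replicates 1, 2 and 3. With EBSS replicate 1 left out, 4 fell. Cxcl1 had 78.2, 154 and 157 TPM in labelled-KO EBSS and 3.80, 5 and 4.79 TPM in KO full medium, with replicate 1 lowest among the EBSS libraries. Il1rl1, the receptor for interleukin 33, had 259, 354 and 329 TPM in labelled-KO EBSS and 16.3, 17.4 and 18 TPM in KO full medium, a rise of 4.10. Cx3cl1, a membrane-bound chemokine, rose by 3.66, with all its EBSS libraries above all KO full-medium libraries. Saa3, an acute-phase protein, rested on replicate 1, at 76.4, 8.32 and 2.84 TPM in labelled-KO EBSS and 0.741, 0 and 1.11 TPM in KO full medium. Its rise of 3.19 became 1.95 without replicate 1, and it did not pass with any 1 KO full-medium library left out (adjusted p from 0.0603 to 0.0933, limma). Ccl8, a monocyte chemokine, changed by -1.75 and Tnfaip3, an inhibitor of NF-kB signalling, by -0.59.

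Promoters of these 2 lists are shown because their members moved together and the recognition elements of their factors are known. Windows ran from 250 bases before to 50 after the RefSeq gene start on GRCm38.p6 and were found for 9792 of the 12295 tested genes. The interferon-stimulated response element (either strand) was in 18 of 36 windows (50%) of all tested interferon genes and in 15 of 30 (50%) of those that rose, against 353 of 9792 (3.6%) over all tested genes. The kappa-B element of NF-kB (either strand) was in 10 of 27 windows (37.0%) of all tested NF-kB and cytokine genes and in 8 of 21 (38.1%) of those that rose, against 632 of 9792 (6.45%). A match is a description of the letters and shows no binding. The genes with the largest rise that hold these elements are Gbp2 (chr3:142620413-142620712, plus strand) and Cxcl1 (chr5:90890995-90891294, plus strand), with matches in capitals, 1 in Gbp2 and 2 in Cxcl1. The first match starts 59 bases before the start site in Gbp2 and 89 bases before it in Cxcl1.
Gbp2: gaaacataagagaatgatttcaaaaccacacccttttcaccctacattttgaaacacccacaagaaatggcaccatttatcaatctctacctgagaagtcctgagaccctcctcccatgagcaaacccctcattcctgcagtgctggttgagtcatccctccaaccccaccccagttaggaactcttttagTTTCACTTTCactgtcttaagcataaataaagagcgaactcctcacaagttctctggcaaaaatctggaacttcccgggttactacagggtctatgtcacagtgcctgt
Cxcl1: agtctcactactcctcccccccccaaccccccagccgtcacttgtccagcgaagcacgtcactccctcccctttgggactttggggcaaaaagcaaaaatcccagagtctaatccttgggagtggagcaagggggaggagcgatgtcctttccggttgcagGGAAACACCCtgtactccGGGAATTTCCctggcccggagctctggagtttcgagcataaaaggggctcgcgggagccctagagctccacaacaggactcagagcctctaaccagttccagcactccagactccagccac

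Genes that serum induces within minutes, the immediate early genes, were higher in EBSS libraries in most cases. Of 36 tested, 20 rose and 6 fell, with a median of 0.91, and 17 to 25 rose with single libraries left out. The list's median against the mean of wildtype full medium was -0.33, 0.07 and 0.06 in EBSS replicates 1, 2 and 3. Egr1, a zinc-finger factor induced through ERK and SRF, had 139, 206 and 188 TPM in labelled-KO EBSS and 14.5, 15 and 12.7 TPM in KO full medium. It rose by 3.55 ± 0.15 (SE; adjusted p = 7.66e-06, limma), with no overlap. Egr2, its relative, had 2.90, 9.21 and 9.84 TPM in labelled-KO EBSS and 0.539, 0.350 and 0.377 TPM in KO full medium, a rise of 2.41. Egr3 rose by 2.38 and Spry1, a feedback inhibitor of receptor tyrosine kinases, by 2.06. Replicate 1 was the lowest EBSS library in Egr1, Egr2 and Egr3 and the highest in Spry1. Egr2, Egr3 and Spry1 passed the filter only through EBSS, so their separation from KO full medium follows from it. The phosphatase genes Dusp4 and Dusp1, which switch off MAP kinases, changed by -1.85 and -1.55, and the transcription factor genes Klf4 and Klf2 by -1.60 and -1.09. Klf4 had 47.4, 19.5 and 17.6 TPM in labelled-KO EBSS and 70.7, 85.2 and 81.9 TPM in KO full medium.

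The lists most tied to amino acid starvation split between the EBSS replicates. For ATF4 and the integrated stress response, 11 of 41 tested members rose and 1 fell, with a median of 0.63, so the share that rose was under the 35.4% of all genes. Without replicate 1, 17 rose and 17 fell, and with replicate 2, replicate 3 or any KO full-medium library left out 0 fell. The list's median change against the mean of KO full medium was 1.68 in replicate 1, 0.19 in replicate 2 and 0.01 in replicate 3. Replicate 1 was at least 2-fold above the mean of the other EBSS libraries in 36 of the 41, where 2.94% of all genes were. Trib3, a pseudokinase induced by ATF4 and CHOP, had 307, 27.1 and 21 TPM in labelled-KO EBSS and 87.6, 71.1 and 77.5 TPM in KO full medium. Replicate 1 was above and replicates 2 and 3 were below every KO full-medium library, and the gene did not pass (adjusted p = 0.682, limma). Ddit3, which encodes CHOP, had 1937, 249 and 160.3 TPM in labelled-KO EBSS and 464, 428 and 405 TPM in KO full medium. Ddit3 had the same order, and without replicate 1 it changed by -1.11 (adjusted p = 0.000422, limma), as Trib3 did by -1.67 (adjusted p = 1.01e-05, limma). Slc7a11, the cystine importer, had 26.8, 2.37 and 1.82 TPM in labelled-KO EBSS and 0.462, 0.506 and 0.589 TPM in KO full medium. All EBSS libraries were above KO full medium there, which follows from the filter, since Slc7a11 entered only through EBSS. The spread kept it from passing (adjusted p = 0.0557, limma), and it passed without any 1 of the EBSS libraries. 

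Further members were picked after their values were seen. Atf4 itself had 1420.0, 533 and 507 TPM in labelled-KO EBSS and 486, 493 and 430.0 TPM in KO full medium. Asns, the asparagine synthetase, had 499, 149 and 137 TPM in labelled-KO EBSS and 207, 216 and 213 TPM in KO full medium. Chac1, a glutathione-degrading enzyme, had 199, 30.4 and 23.1 TPM in labelled-KO EBSS and 41.4, 39.7 and 39.1 TPM in KO full medium. Atf4, Asns and Chac1 did not pass (adjusted p = 0.176, 0.954 and 0.673, limma), and in Asns and Chac1 the KO full-medium libraries lay between replicate 1 and the others. Members that did rise had all 3 EBSS libraries above KO full medium. Stc2, a secreted glycoprotein, had 56.8, 27.2 and 26.4 TPM in labelled-KO EBSS and 2.44, 2.61 and 2.28 TPM in KO full medium, a rise of 3.37 (adjusted p = 7.23e-05, limma). Atf5, a factor related to ATF4, had 415, 153 and 128 TPM in labelled-KO EBSS and 49.9, 55.7 and 47.1 TPM in KO full medium, a rise of 1.96. Adm2, a secreted peptide hormone, rose by 2.76 and Cth, which makes cysteine, by 2.15, but Adm2 did not pass without any 1 KO full-medium library (adjusted p from 0.0530 to 0.0553, limma) and Cth not without replicate 1 or 2 of them. Gdf15, a stress-induced cytokine, was the member that fell, at 3.97, 0.433 and 0.284 TPM in labelled-KO EBSS and 4.16, 3.84 and 5.20 TPM in KO full medium. Its adjusted p was 0.0431 (limma), and it passed without replicate 1 of EBSS, at -1.98, but not without any of the other 5 libraries.

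Cytosolic tRNA synthetases, many of them ATF4 targets, had the same split. Of 19 tested, 2 rose and 1 fell, with a median of 0.04 (-0.09 after median-of-ratios scaling, with 1 that rose and 2 that fell). Without replicate 1, 3 rose and 13 fell, and without any 1 of the KO full-medium libraries 1 rose. The list's median against the mean of KO full medium was 0.85 in replicate 1, -0.30 in replicate 2 and -0.39 in replicate 3, and replicate 1 was at least 2-fold above the others in 11 of the 19. Aars, the alanine enzyme, picked after its values were seen, had 519, 176 and 168 TPM in labelled-KO EBSS and 308, 329 and 354 TPM in KO full medium. The KO full-medium libraries lay between. Dars and Vars, the aspartate and valine enzymes, rose by 0.60 and 0.50, though Vars did not pass after median-of-ratios scaling or without any 1 KO full-medium library. Kars, the lysine enzyme, changed by -0.42.

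Chaperones and folding enzymes of the endoplasmic reticulum (ER) were higher in many cases, most in replicate 1. Of 36 tested, 16 rose and 2 fell, with a median of 0.63. The count that rose was 18 without replicate 1 (4 fell) but 8, 9 and 10 with KO full-medium replicate 1, 2 or 3 left out. Without EBSS replicate 2 or 3 or KO full-medium replicate 1 or 2, 0 fell, and without KO full-medium replicate 3, 1 fell. Hspa5, which encodes the lumenal chaperone BiP, had 8019, 1549 and 1388 TPM in labelled-KO EBSS and 541, 603 and 564 TPM in KO full medium. Its rise was 2.18 ± 0.61 (SE; adjusted p = 0.018, limma), and 1.36 without replicate 1 (adjusted p = 2.85e-06, limma). All EBSS libraries were above KO full medium, replicates 2 and 3 were near the wildtype full-medium values of 1293, 1333 and 1338 TPM, and replicate 1 was far above both. Manf, a secreted ER stress protein, had 2274, 525 and 493 TPM in labelled-KO EBSS and 227, 200.2 and 235 TPM in KO full medium, a rise of 1.92. Neither Hspa5 nor Manf passed without any 1 KO full-medium library (adjusted p from 0.0531 to 0.0710, limma). Serpinh1, the collagen chaperone HSP47, and P4ha3, a collagen prolyl hydroxylase subunit, rose by 1.94 and 1.93. Serpinh1 had 1173, 759 and 721 TPM in labelled-KO EBSS and 195, 255 and 228 TPM in KO full medium, with a smaller gap between replicates than Hspa5.

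The unfolded protein response with ER-associated degradation was split in direction. Of 28 tested, 5 rose and 7 fell, with a median of 0.27. The count that rose was 8 without EBSS replicate 1, 9 without EBSS replicate 3, and 1, 3 and 2 without KO full-medium replicate 1, 2 and 3. Herpud1, an ER membrane protein of the degradation machinery and a target of ATF4 and ATF6, had 956, 87.1 and 59.1 TPM in labelled-KO EBSS and 54.9, 56.8 and 65.0 TPM in KO full medium. It did not pass (adjusted p = 0.195, limma), with only replicate 1 far from KO full medium. Xbp1, the factor spliced by IRE1, had 199, 49.9 and 46.1 TPM in labelled-KO EBSS and 24.0, 24.7 and 25.3 TPM in KO full medium, a rise of 1.61 that did not pass without any 1 KO full-medium library. Erlec1, an ER lectin, rose by 1.54, and Fam129a and Atf6b changed by -1.60 and -1.0.

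Promoters are shown for the starvation and ER genes because these lists set replicate 1 apart from the other EBSS libraries. The letters TGATGNAA (a C/EBP-ATF form, either strand) were in 12 of 35 windows (34.3%) of the ATF4 list, in 1 of 9 (11.1%) of its members that rose, and in 264 of 9792 (2.7%) over all tested genes. Among all genes at least 2-fold above in replicate 1, the list members included, 29 of 273 windows (10.6%) held them. In the list members 2-fold above in replicate 1 they were in 11 of 31 (35.5%), near the share of the whole list. The ER stress element (searched after the values were seen, either strand) was in 7 of 29 windows (24.1%) of the ER chaperone list. It was in 6 of 11 (54.5%) of its members 2-fold above in replicate 1, and in 14 of 9792 (0.143%) over all tested genes. Among all genes at least 2-fold above in replicate 1, the list members included, 8 of 273 windows (2.93%) held the element. Nupr1 is the ATF4-list member that rose and holds the letters (chr7:126625421-126625720, minus strand), with 857, 478 and 428 TPM in labelled-KO EBSS and 250.1, 231 and 216 TPM in KO full medium. Herpud1 (chr8:94386179-94386478, plus strand), Trib3 (chr2:152344011-152344310, minus strand) and Hspa5 (chr2:34771840-34772139, plus strand) were picked after their values were seen. Capitals mark the matches, on GRCm38.p6, which start 110 bases before the start site in Nupr1, 112 before it in Herpud1, 14 after it in Trib3 and 65 before it in Hspa5.
Nupr1: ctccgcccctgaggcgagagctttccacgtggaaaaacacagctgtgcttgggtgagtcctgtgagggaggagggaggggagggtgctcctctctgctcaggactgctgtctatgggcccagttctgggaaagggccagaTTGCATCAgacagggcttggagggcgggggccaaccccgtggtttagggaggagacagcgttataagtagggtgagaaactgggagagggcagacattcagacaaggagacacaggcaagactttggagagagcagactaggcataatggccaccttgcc
Herpud1: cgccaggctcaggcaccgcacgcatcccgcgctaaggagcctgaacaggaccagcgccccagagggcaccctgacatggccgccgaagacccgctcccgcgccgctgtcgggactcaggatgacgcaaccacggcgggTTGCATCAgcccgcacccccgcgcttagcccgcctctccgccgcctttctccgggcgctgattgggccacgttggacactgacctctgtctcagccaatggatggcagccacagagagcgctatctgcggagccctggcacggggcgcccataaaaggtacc
Trib3: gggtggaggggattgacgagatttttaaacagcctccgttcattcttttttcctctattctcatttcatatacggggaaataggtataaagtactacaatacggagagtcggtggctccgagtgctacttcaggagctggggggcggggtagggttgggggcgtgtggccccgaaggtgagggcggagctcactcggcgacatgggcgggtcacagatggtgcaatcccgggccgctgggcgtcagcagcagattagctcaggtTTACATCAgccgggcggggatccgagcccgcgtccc
Hspa5: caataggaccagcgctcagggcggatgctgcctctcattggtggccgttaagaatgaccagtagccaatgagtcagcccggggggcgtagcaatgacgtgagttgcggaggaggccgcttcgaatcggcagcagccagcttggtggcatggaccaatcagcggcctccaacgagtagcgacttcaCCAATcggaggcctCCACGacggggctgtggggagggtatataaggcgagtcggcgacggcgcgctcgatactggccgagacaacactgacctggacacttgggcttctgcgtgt

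**Figure D4:**
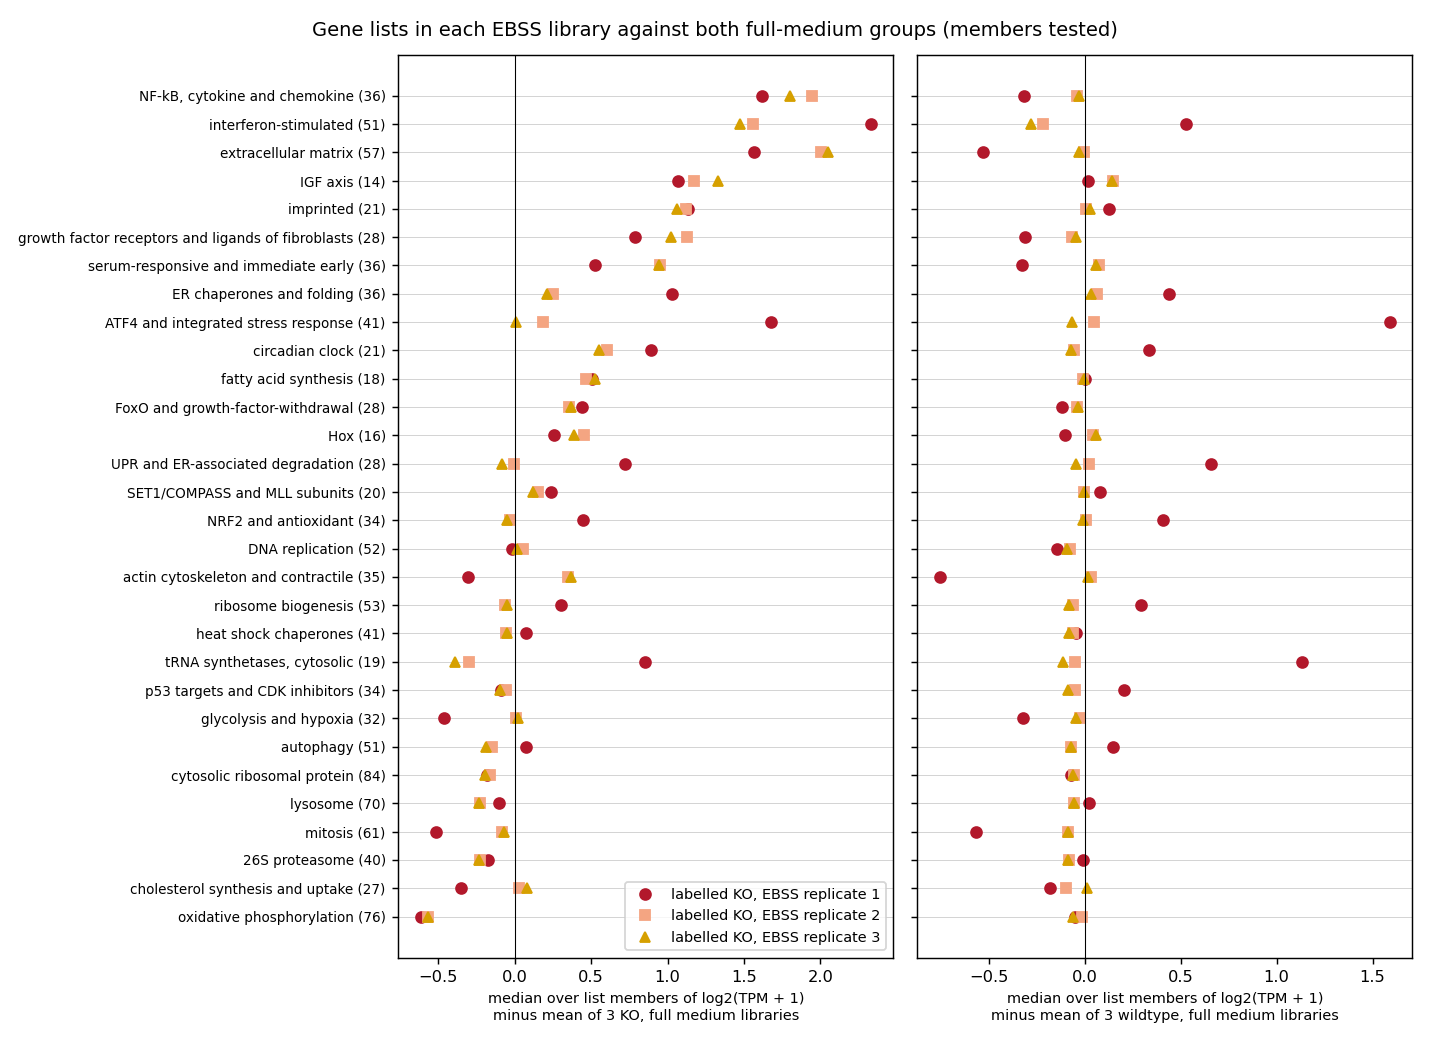
Median over the tested members of 30 gene lists of log2(TPM + 1) in each EBSS library minus the mean of the 3 KO full-medium libraries (left panel) and minus the mean of the 3 wildtype full-medium libraries (right panel). In the right panel replicates 2 and 3 lie near 0 in most lists, while replicate 1 reaches 1.59 in the ATF4 list.

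Taken singly, replicates 2 and 3 carried few genes of their own. In replicate 1, 346 genes (2.81%) were at least 2-fold higher and 277 (2.25%) at least 2-fold lower than the mean of the wildtype full-medium libraries. Replicate 2 had 26 higher (0.211%) and 26 lower (0.211%), and replicate 3 had 36 higher (0.293%) and 13 lower (0.106%). Against the mean of KO full medium the counts were alike in the 3 libraries. They were 2013 higher (16.4%) and 723 lower (5.88%) in replicate 1, 1749 higher (14.2%) and 739 lower (6.01%) in replicate 2, and 1721 higher (14%) and 783 lower (6.37%) in replicate 3. Each of these is a description of 1 library, with no test. Against the other EBSS libraries, 362 genes (2.94%) were at least 2-fold higher in replicate 1 and 221 (1.8%) at least 2-fold lower. Replicate 2 had 26 (0.211%) such genes higher and 51 (0.415%) lower than the others, and replicate 3 had 38 (0.309%) and 72 (0.586%). The genes most above in replicate 2 or 3 were mostly small RNA genes such as Snora62, Mir3098 and Mir6418, whose mature RNAs carry no poly(A) tail, while the labels name poly(A) RNA.

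Genes outside the ATF4 and ER lists also stood far above in replicate 1. Icam1, a leukocyte adhesion molecule, had 28.3, 2.91 and 1.88 TPM in labelled-KO EBSS and 0.544, 0.591 and 0.387 TPM in KO full medium. Its rise of 2.20 had an adjusted p of 0.0447 (limma) and did not pass without any 1 KO full-medium library or after quantile normalization. Icam1 entered the comparison only through the EBSS libraries, so its call supports nothing. P2rx7, an ATP-gated channel, had 41.9, 5.15 and 3.70 TPM in labelled-KO EBSS and 4.20, 3.41 and 4.71 TPM in KO full medium, so only replicate 1 was apart. Hmox1, heme oxygenase of the antioxidant response, picked after its values were seen, had 961, 178 and 157 TPM in labelled-KO EBSS and 304, 289 and 287 TPM in KO full medium. The KO full-medium libraries lay between replicate 1 and the other EBSS libraries, as in Trib3 and Asns.

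Has2, Ccn2 and Fgf2 above were far lower in replicate 1 than in the other EBSS libraries. Thbs1, the matrix protein thrombospondin 1, had 121, 849 and 845 TPM in labelled-KO EBSS and 488, 753 and 756 TPM in KO full medium, and did not pass with or without replicate 1. Inhba, a subunit of activin, had 14, 83.3 and 85.7 TPM in labelled-KO EBSS and 19.8, 34.9 and 29.9 TPM in KO full medium. Gjb2, a gap junction connexin, rose by 4.31, at 4.03, 49.7 and 44.6 TPM in labelled-KO EBSS and 0.0649, 0.199 and 0.166 TPM in KO full medium. Replicate 1 was the lowest EBSS library in Thbs1, Inhba and Gjb2. Only in Gjb2 was it above KO full medium, which follows from the filter, since Gjb2 entered only through EBSS.

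Actin cytoskeleton genes were also mostly lower in replicate 1 than in the other EBSS libraries. Of 35 tested, 10 rose and 5 fell, with a median of 0.07 (-0.06 after median-of-ratios scaling). Without EBSS replicate 1, 22 rose and 5 fell, and without KO full-medium replicate 1, 4 rose. The median against the mean of KO full medium was -0.31 in replicate 1, 0.35 in replicate 2 and 0.37 in replicate 3. Actb, picked after its values were seen, had 2641, 6778 and 7053 TPM in labelled-KO EBSS and 4050.3, 3925 and 3864 TPM in KO full medium. The KO full-medium libraries again lay between replicate 1 and the other EBSS libraries. Flna, the actin crosslinker filamin A, had 316, 577 and 585 TPM in labelled-KO EBSS and 151, 182 and 189.7 TPM in KO full medium, a rise of 1.45, and Cnn1, calponin of smooth muscle, rose by 1.51.

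**Figure D5:**
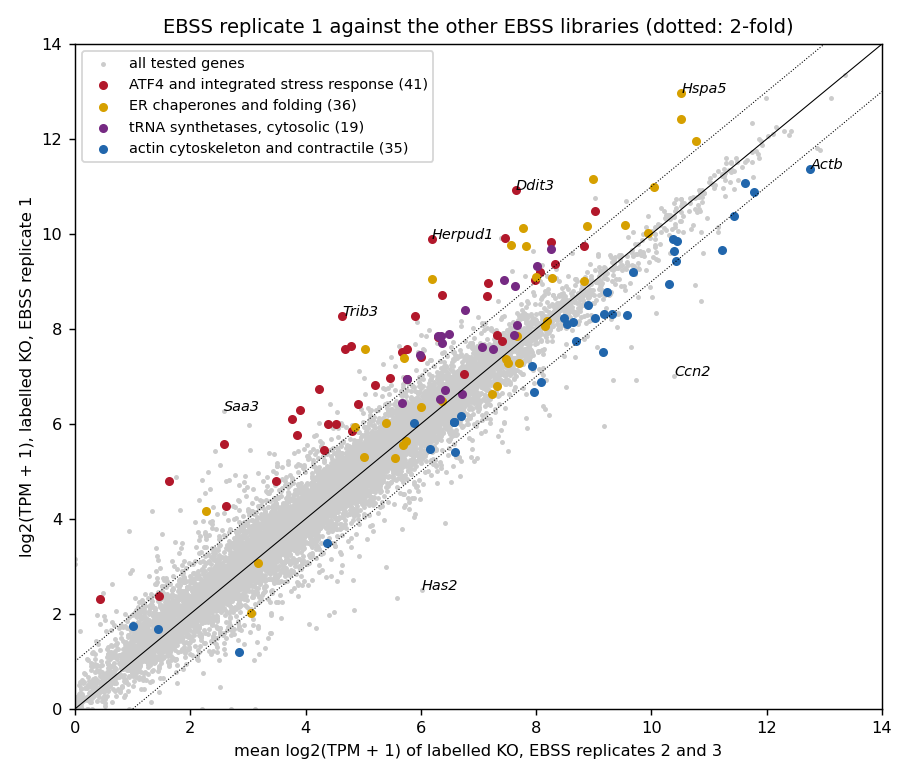
Level in EBSS replicate 1 against the mean of EBSS replicates 2 and 3, both in log2(TPM + 1), for all tested genes (grey) and 4 gene lists (coloured); the solid line marks equality and dotted lines 2-fold. Most ATF4 genes (36 of 41) lie on or above the upper dotted line and actin genes mostly below the solid line.

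Autophagy and lysosome genes did not rise together. Of 51 autophagy genes tested, 10 rose and 16 fell, with a median of -0.12, and 24 fell without replicate 1. Gabarapl2, a member of the ATG8 family that coats autophagosomes, had 113, 112 and 126 TPM in labelled-KO EBSS and 389, 359 and 353 TPM in KO full medium. It changed by -1.64 ± 0.09 (SE; adjusted p = 1.32e-05, limma), with no overlap. Map1lc3b, another of that family, changed by -0.76, and Atg12 and Atg5, which are joined to each other in the conjugation system, by -0.84 and -0.73. Map1lc3a rose by 0.82 and Retreg1, an ER-phagy receptor, by 0.74. Sqstm1, the cargo receptor p62, picked after its values were seen, had 1727, 538 and 503 TPM in labelled-KO EBSS and 384, 386 and 374 TPM in KO full medium. It did not pass (adjusted p = 0.0775, limma), with replicate 1 again far above the others.

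Of 70 lysosome genes, 18 rose and 30 fell, with a median of -0.19, and 26 to 36 fell with single libraries left out. Ctsh and Ctsc, cysteine cathepsins, rose by 3.10 and 1.93. Ctsh had 18.1, 18.5 and 19.4 TPM in labelled-KO EBSS and 1.28, 1.15 and 1.47 TPM in KO full medium, and the 3 EBSS libraries were close together. Neu1, a sialidase, had 24.7, 21.5 and 20.1 TPM in labelled-KO EBSS and 66.8, 64.0 and 74.2 TPM in KO full medium, a change of -1.59. Lamp1, the main lysosomal membrane protein, had 1136, 1068 and 1059 TPM in labelled-KO EBSS and 2454, 2658 and 2733 TPM in KO full medium, a change of -1.26. Atp6v0b and Atp6v0d1, membrane-sector subunits of the proton pump, changed by -1.17 and -1.16. All 4 of these falls had every EBSS library below every KO full-medium library, as 27.0% of all tested genes did.

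Among 28 genes that FoxO factors or growth factor withdrawal raise, 13 rose and 3 fell, with a median of 0.39, but 8 rose after quantile normalization. Arrdc4, an arrestin-like protein, rose by 2.02 and Bcl6, a transcriptional repressor, by 1.81, while Cited2 changed by -1.01. Of 40 genes of the 26S proteasome list, which also holds activator subunits, 4 rose and 17 fell, with a median of -0.20. After median-of-ratios scaling 2 rose and 24 fell. The members that rose included Psme1 and Psme2, the interferon-inducible activator subunits, at 0.97 and 0.94, and Psmb3, a core subunit, changed by -0.83.

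Oxidative phosphorylation genes, which encode the nuclear-encoded subunits of the respiratory chain, were the list with the largest share that fell among the 30 shown. Of 76 tested, 3 rose and 56 fell, with a median of -0.60, and 53 to 60 fell with single libraries left out. After median-of-ratios scaling 1 rose and 60 fell. Ndufb2, of complex I, had 43.9, 42.8 and 40.2 TPM in labelled-KO EBSS and 118, 104 and 126 TPM in KO full medium. It changed by -1.43 ± 0.10 (SE; adjusted p = 3.09e-05, limma). Ndufb10, also of complex I, had 272, 269 and 250.1 TPM in labelled-KO EBSS and 724, 708 and 609.7 TPM in KO full medium, a change of -1.36. Uqcr11, of complex III, had 421, 512 and 514 TPM in labelled-KO EBSS and 1398, 1058 and 1147 TPM in KO full medium, a change of -1.31. Replicates 2 and 3 did not differ from replicate 1 in direction in these genes, and the groups did not overlap. Atp5g2, which encodes a subunit of the ATP synthase rotor, rose by 0.67. Ndufc2 and Atp5j rose by 0.36 and 0.26 but did not pass after median-of-ratios scaling.

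Other metabolic lists were mixed. Among 18 genes of fatty acid synthesis, 10 rose and 3 fell, with a median of 0.44, and 1 fell without KO full-medium replicate 2 or 3. Scd1, the stearoyl-CoA desaturase, had 121, 127 and 123 TPM in labelled-KO EBSS and 37.5, 58.4 and 57.1 TPM in KO full medium, a rise of 1.29. Dgat2, which makes triglycerides, rose by 1.38, and Acss2, which makes acetyl-CoA from acetate, changed by -1.71. Of 27 genes of cholesterol synthesis and uptake, 5 rose and 6 fell, with a median of -0.20, and 10 rose and 8 fell without EBSS replicate 1. Cyp51 rose by 0.99, and Tm7sf2 and Mvk changed by -1.51 and -1.12. The letters TCACNCCAC (a sterol response element form, either strand) were in 0 of 4 windows of cholesterol genes that rose, in 1 of 19 (5.26%) of the tested list and in 127 of 9792 (1.3%) over all tested genes. Of 32 genes of glycolysis and hypoxia, 10 rose and 10 fell, and 5 or 6 fell with any 1 KO full-medium library left out. Vegfa, the vascular growth factor, had 208, 233 and 222 TPM in labelled-KO EBSS and 50.9, 55.3 and 55.7 TPM in KO full medium, a rise of 2.01. Ldhb, a lactate dehydrogenase, rose by 1.92, and Pgam1 and Hk1, glycolytic enzymes, changed by -0.87 and -0.82.

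Of 34 genes of the antioxidant factor NRF2, 11 rose and 7 fell, with a median of 0.12 (-0.01 after median-of-ratios scaling, with 7 and 8), and 7 rose without KO full-medium replicate 3. Gsta4, a glutathione transferase, had 33.4, 10.4 and 10.3 TPM in labelled-KO EBSS and 1.43, 1.32 and 1.83 TPM in KO full medium, a rise of 2.71. G6pdx, of the pentose phosphate pathway, rose by 1.78. The ferritin genes moved the other way. Ftl1, the light chain, had 3118, 2456 and 2566 TPM in labelled-KO EBSS and 6882, 6457 and 6192 TPM in KO full medium, a change of -1.27, and Fth1, the heavy chain, changed by -0.77. All EBSS libraries were below all KO full-medium libraries in both ferritin genes.

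Of 84 cytosolic ribosomal protein genes, 13 rose and 32 fell, with a median of -0.19. After median-of-ratios scaling 5 rose and 35 fell, and 8 rose without EBSS replicate 2 or KO full-medium replicate 2 or 3. Rps2 had 3419.8, 3568 and 3604 TPM in labelled-KO EBSS and 6936, 6629 and 6847 TPM in KO full medium, a change of -0.95. Rpl22l1, a paralog of Rpl22, had 107, 91.3 and 101 TPM in labelled-KO EBSS and 42.3, 34.3 and 52.8 TPM in KO full medium, a rise of 1.21, while Rpl22 changed by -0.72. Many of these genes have near-identical pseudogenes that can share reads, so single values are uncertain. Of 53 ribosome biogenesis genes, 12 rose and 9 fell, with a median of 0.07 (-0.06 after median-of-ratios scaling). Without EBSS replicate 1, 19 fell, and without EBSS replicate 3 or KO full-medium replicate 1, 5 fell. Dkc1, the pseudouridine synthase of box H/ACA particles, rose by 1.34, and Nop10, of the same particles, changed by -0.85.

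Of 52 DNA replication genes, 14 rose and 17 fell, with a median of 0.10. After median-of-ratios scaling 8 rose and 20 fell, with a median of -0.03. The count that rose was 22 without EBSS replicate 1 and 9 without EBSS replicate 2 or 3. Rrm2, a subunit of ribonucleotide reductase, had 127, 201 and 200.3 TPM in labelled-KO EBSS and 475, 518 and 537 TPM in KO full medium, a change of -1.56. Dut, which removes dUTP, rose by 1.00, and the EBSS and KO full-medium libraries did not overlap in either gene. Of 61 mitosis genes, 9 rose and 14 fell, with a median of -0.20. After median-of-ratios scaling 5 rose and 22 fell, and without EBSS replicate 1, 17 rose and 17 fell. Without KO full-medium replicate 2 or 3, 8 and 9 mitosis genes fell. The mitosis median against the mean of KO full medium was -0.51 in replicate 1, -0.08 in replicate 2 and -0.07 in replicate 3. Of 34 p53 targets and CDK inhibitors, 6 rose and 11 fell (7 without KO full-medium replicate 3), and Cdkn1a, the inhibitor p21, had 179, 132 and 122 TPM in labelled-KO EBSS and 255, 298 and 277 TPM in KO full medium. It changed by -0.95, with every EBSS library lower.

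Of 20 subunits of the SET1/COMPASS and MLL complexes, in which RBBP5 works, 7 rose and 3 fell, with a median of 0.17, so the shares were near those of all genes. Dpy30, a core partner of RBBP5, had 123, 114 and 118 TPM in labelled-KO EBSS and 279.7, 302 and 262 TPM in KO full medium, a change of -1.24 ± 0.08 (SE; adjusted p = 3.13e-05, limma). Hcfc1 and Setd1b rose by 1.17 and 0.96, and Hcfc2 changed by -1.02. Wdr5 and Ash2l, the other core partners, did not pass (adjusted p = 0.963 and 0.157, limma) and were picked for that role, not for their values. Wdr5 had 84.0, 74.0 and 71.0 TPM in labelled-KO EBSS and 70.5, 76.4 and 81.0 TPM in KO full medium, and the groups overlapped.

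Of 21 circadian clock genes, 11 rose and 0 fell, with a median of 0.52. After quantile normalization, and without EBSS replicate 1, 3 fell, and 1 fell without KO full-medium replicate 1. Hlf rose by 2.06 and Nfil3 by 1.67, both transcription factors of the clock output. Nfil3 had 69.4, 67.6 and 73.0 TPM in labelled-KO EBSS and 22.6, 19.3 and 22.1 TPM in KO full medium, and its replicates were close. Of 16 Hox genes tested, 7 rose and 2 fell, but 3 rose and 4 fell after quantile normalization, and 1 fell without KO full-medium replicate 2 or 3. Hoxd8 had 17.8, 23.2 and 24.2 TPM in labelled-KO EBSS and 3.91, 6.16 and 4.10 TPM in KO full medium, a rise of 2.00. Of 41 heat shock chaperones, 11 rose and 11 fell, with a median of 0.05 (-0.08 after median-of-ratios scaling, with 7 that rose). Without EBSS replicate 1, 17 of them fell, and 7 rose without EBSS replicate 2 or 3. Hspb1, a small heat shock protein, rose by 0.97 and Hspa4l changed by -0.98.

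The labelled cell type was checked against its markers. Of 13 fibroblast markers, 12 were tested, and of these 10 rose, 0 fell and 2 (Vim and S100a4) did not pass, with 1 that fell without EBSS replicate 1. Among the 10, Pdgfra, Lum and Thy1 passed the filter only through EBSS, so their calls follow from it. The summed level of the 13 markers was 4533, 7386 and 7532 TPM in labelled-KO EBSS and 5741, 5822 and 5973 TPM in KO full medium. Most of that sum was Vim and S100a4. Vim had 1973, 2730.2 and 2763 TPM in labelled-KO EBSS and 2996, 3235 and 3039 TPM in KO full medium, and S100a4 had 484, 1658 and 1787 TPM in labelled-KO EBSS and 2093, 1859 and 2052 TPM in KO full medium. Some other markers were near 0 in KO full medium, Pdgfra at 0.224 to 0.263 TPM and Lum at 0.195 to 0.417 TPM. Fap was at 0 to 0.0286 TPM there and also under 1 TPM in labelled-KO EBSS, at 0.477 to 0.804 TPM. Others were well above 0 in KO full medium, Col1a1 at 215 to 323 TPM and Col1a2 at 297 to 384 TPM. Col3a1 was at 33.4 to 53.5 TPM there, Twist1 at 42.5 to 45.2 TPM and Pdgfrb at 24.3 to 34.8 TPM. Dcn was at 21.9 to 25.2 TPM and Prrx1 at 12.3 TPM in its lowest KO full-medium library. Thy1, a surface marker of many fibroblasts, was low, at 1.24, 1.10 and 1.20 TPM in labelled-KO EBSS and 0.368, 0.169 and 0.236 TPM in KO full medium. In bulk RNA, fewer cells of a type and less RNA per cell cannot be told apart.

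Markers of other cell types were mostly low and partly moved with the groups. For macrophages, 3 of 9 markers were tested, Cd14 rose, Lyz2 and Cd68 fell, and the sum was 30.9 to 33.8 TPM in labelled-KO EBSS and 65.0 to 69.7 TPM in KO full medium. Adgre1 was at 0 in all 3 EBSS libraries and at 0.178 to 0.209 TPM in KO full medium. For epithelia, 4 of 10 were tested, Krt8, Krt19 and Cldn4 fell, and the sum was 101 to 147 TPM in labelled-KO EBSS and 249 to 284 TPM in KO full medium, nearly all of it Krt19. Krt18 rose by 0.39, a call lost after median-of-ratios scaling and without EBSS replicate 2 or 3 or KO full-medium replicate 2 or 3, and Epcam stayed at or under 0.209 TPM. For skeletal muscle, 6 of 10 were tested, 2 rose and 4 fell, Acta1 among them. Without any 1 library other than EBSS replicate 3, 3 fell. Tnni1, which rose, passed the filter only through EBSS. The muscle sum was 11.2 to 13.8 TPM in labelled-KO EBSS and 69.7 to 91.6 TPM in KO full medium. Myod1 was at or under 0.0428 TPM in all 6 libraries. For endothelium, 2 of 7 were tested, Kdr rose and Vwf fell, and the sum was 3.33 to 5.23 TPM in labelled-KO EBSS and 8.25 to 9.05 TPM in KO full medium. Neural (5 of 7 tested), adipocyte (4 of 7) and cartilage and bone (3 of 8) markers had 1, 2 and 1 members that rose and 1 each that fell, with 1 adipocyte marker that rose after median-of-ratios scaling or quantile normalization. Sox2, a neural marker, and Cebpa, an adipocyte marker, passed the filter only through EBSS. Their rise follows from it. Without EBSS replicate 1, 3 neural markers rose and 2 fell, and 2 cartilage and bone markers rose. The neural fall was lost without EBSS replicate 2 or 3 or KO full-medium replicate 2 or 3, and the adipocyte fall without any 1 library other than EBSS replicate 1. The cartilage and bone fall was lost without EBSS replicate 3 or KO full-medium replicate 1 or 3, and 1 adipocyte marker rose without EBSS replicate 3 or KO full-medium replicate 3. Summed levels were 113 to 209 TPM in labelled-KO EBSS and 93.8 to 104 TPM in KO full medium for neural markers. They were 54.7 to 68.8 TPM in labelled-KO EBSS and 55.9 to 68.7 TPM in KO full medium for adipocyte markers. Cartilage and bone markers summed to 27.1 to 36.7 TPM in labelled-KO EBSS and 19.6 to 20.6 TPM in KO full medium. Dcx, a neural marker, and Plin1, an adipocyte marker, were at 0 in all 6 libraries. The part of these levels in the results above was not tested.

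RNAs that lack poly(A) tails are carried over in poly(A) libraries to a varying extent. Of 5 tested, Rpph1 and Rmrp rose by 1.35 and 1.14 and Terc changed by -1.13. Rmrp had 6.37, 20.0 and 15.8 TPM in labelled-KO EBSS and 7.70, 3.16 and 5.66 TPM in KO full medium, so the groups overlapped. Its call, at an adjusted p of 0.0499 (limma), was lost without any 1 of the libraries other than EBSS replicate 1. Without EBSS replicate 3, 2 of the 5 fell, and 1 rose after median-of-ratios scaling or quantile normalization.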

How the data were processed

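Poly(A) RNA from mouse embryonic fibroblasts was sequenced in 12 libraries, which were deposited as 1 gene table of TPM values. Per the submitters' processing notes the authors used Salmon and mm10, with no version named. All 12 sample columns matched titles, 0 value columns were unmapped, and 6 entered the comparison. Values were log2(TPM + 1), with no scaling beyond the authors' own, so a shift in the makeup of RNA can move all genes, and TPM gives no counts or depth. Genes with at least 1 TPM in at least 3 of 6 libraries were tested with limma 3.58.1 (R 4.3.3; trended variances, empirical Bayes, labelled-KO EBSS minus KO full medium). Adjusted p-values (Benjamini-Hochberg) under 0.05 were calls. The fit was tested on simulated data. Promoters came from RefSeq (GRCm38.p6) and gene positions from GENCODE vM21, found for 12086 of 12295 genes (98.3%).

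Genes named were Rbbp5, the 10 largest rises and falls (mean at least 5 TPM in the higher group, no overlap, without predicted genes, pseudogenes and ribosomal protein genes), and up to 4 called members per direction of a list with the largest change, or up to 3 members where none was called. The 8 genes most above and below the other EBSS libraries (at least 5 TPM) were taken for each EBSS library. Genes outside this rule are marked as such in the text, and some genes the rule gives are not reported here. Members and lists were chosen with earlier results of these data known. The replicate numbers were not used as pairs in the main fit, and whether they pair the libraries is unknown.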

Additional observations from a re-analysis of the deposited data

Results flagged for a closer look

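For 19 genes the change from full medium to EBSS under the KO label differed from that under the wildtype label, by the interaction term of a limma fit over all 12 libraries (Benjamini-Hochberg adjusted). These are Rbbp5 and 9 rises and 9 falls described above, which were chosen on 1 of the 2 contrasts compared. Kap is left out, since it was listed at 0 in all 3 KO full-medium libraries. Over all 12295 genes tested 9491 (77.2%) passed the same test, so passing it does not set these genes apart. Values are log2 differences, the KO-label change minus the wildtype-label change. Rbbp5 had an interaction of 2.52, with a wildtype-label change of -0.98.

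The labelled-wildtype EBSS libraries, which enter every value here, stood apart from the rest. Cytosolic ribosomal protein genes held 35.6, 34.1 and 32.9% of their TPM, against 15.6, 15.3 and 15.5% in wildtype full medium. Their median tested gene had 10.7, 11.2 and 11.05 TPM, against 23.9, 23.8 and 24.0 TPM in wildtype full medium. In them 138, 173 and 974 of the tested genes were at 0, against 47, 6 and 12 in wildtype full medium. The part of these differences in the interaction was not tested.

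Among the genes that rose, the interaction was 12.62 for Crabp1, 13.73 for H19, 12.23 for Igfbp3 and 8.44 for Col5a3. It was 9.48 for Serpina3g, 7.97 for Creb3l1, 8.10 for Rbp4, 4.47 for Cxcl1 and 9.71 for Has2. The wildtype-label change was negative in 8 of these 9 genes, at -5.37 for Crabp1 and -6.60 for H19, and it was 0.03 for Cxcl1.

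Among the genes that fell, the interaction was -6.69 for Acta1, -5.15 for Prl2c3, -3.07 for S100a7a and -3.08 for Cdh17. It was -4.71 for Aldh1a7, -4.70 for AU021092, -2.55 for Prl3d2, -4.77 for Cck and -3.89 for Fam71f1. The wildtype-label change was 2.22 for Acta1. S100a7a, Cdh17 and Prl3d2 had negative changes under both labels, at -1.05, -0.98 and -0.90 under the wildtype label.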

How the results depend on the processing

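The 7304 calls (4350 higher, 2954 lower) became 2403 (1713 higher, 690 lower) where a change of at least 2-fold was also required. Leaving out 1 library gave 6124 to 8504 calls, 3717 to 4815 higher and 2369 to 3689 lower. Other settings gave 5624 (mean TPM at least 5, with fewer genes tested) to 9547 calls (library weights, a fit that did not fully converge). Among 269 named genes, 5277 of the values under other settings kept direction and side of the threshold, 288 lost and 37 gained a call, and 1 reversed. That was Krt18, at -0.022 after quantile normalization (adjusted p = 0.908, limma); the cause was not tested. Of the counts of list members, 1368 stayed within 1.5 times and 266 did not. Requiring at least 2-fold, which removes smaller changes by definition, gave 97 of the 288 lost calls and 50 of these 266 counts.

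With the replicate number as a block (replicate block), 6743 genes were called, 4039 higher and 2704 lower. Deviations of same-numbered libraries correlated at 0.022, 0.037 and 0.0146, and 4 of 6 libraries correlated best with their own number. So few libraries cannot settle whether the numbers pair them. Low values limit precision: log2(TPM + 1) shrinks changes of genes near 0, and no depth is known.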
